A study of Mus with 4 samples.

Results

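The apolipoproteins Apoa1, Apoa2, Apoa4, Apoa5, Apob, Apoc1, Apoc2, Apoc3 and Apoe, together with the fasting hormone gene Fgf21, were followed in murine podocytes that overexpressed OASIS. These 10 genes, of 26893 named on the array, were taken as the genes tied to the transcription factor CREB3L3 in liver, and every probe that carried one of their symbols was read, 17 probes in all. They were chosen by a rule written with the OASIS against Venus intensities of these arrays already known, so that their differences are given as a description and without p-values. Each probe had 1 spot per array, and 6 of the 10 genes had several probes.

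The study searched for genes downstream of OASIS, also called CREB3L1, in podocytes, the cells that form the filtration barrier of the kidney glomerulus. Both groups came from 1 immortalized murine podocyte line, which had been differentiated for 10 to 14 days at 37 °C without interferon-γ. The cells were then exposed for 24 h, at a multiplicity of infection of 200 to 500 and with 8 µg/mL polybrene, to a lentivirus for either Venus, a fluorescent protein used as the control, or the N-terminal, active form of OASIS. RNA was taken 48 h after the vectors were added, from 2 samples per group (Venus 1 and 2, OASIS 1 and 2), and each sample was put on its own 1-colour array. Nothing in the sources used here says that the 2 samples of a group were separate cultures, so that the p-values given for other genes measure only the spread between these samples.

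Apolipoproteins are the protein part of lipoproteins, the particles that carry triglyceride and cholesterol in blood and lymph, and most of them are made by hepatocytes and enterocytes. They hold the particle together, serve as ligands for its receptors, or switch the lipases that empty it on or off. CREB3L3, also called CREB-H, is a membrane-bound relative of OASIS in liver and intestine whose released N-terminal part enters the nucleus during fasting. There it drives Apoa4, Apoc2, Apoa5 and Fgf21, the last often together with the fatty acid receptor PPARα. Apoe is the exception among the apolipoproteins, since macrophages, astrocytes and many other cells make it too.

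With OASIS, the message for Apoa4 went from the background of the array to a strong signal, while no tested probe of the other genes reached a 2-fold difference. Apoa1, Apoa5 and Fgf21 were not well above background on any of the 4 arrays. Apoa2, Apoc1, Apoc3 and Apoe each had a probe well above background on all 4 arrays. Apoc2 and Apob lay at the edge of detection.

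Over the whole array, between 33938 and 34418 of 59305 spots were well above background per array and no spot was saturated. Taken over the tested probes, which do not count as replicates, arrays of 1 group correlated at 0.995 (OASIS) and 0.997 (Venus), and arrays of different groups at 0.973 to 0.978 (Pearson's r). Creb3l1 itself is read by 1 probe, whose log2 value was 0.71 and 0.72 with Venus and 0.61 and 0.49 with OASIS. The place of this probe relative to the insert was not analysed here, so that it does not check the labels. Values below are log2 of the background-corrected intensity relative to the 75th percentile of the array, and the dimmest signal that was still well above background lay between -6.15 and -6.10 on this scale. Only probes that stood well above background in both samples of a group, either one, were tested.

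**Figure D1:**
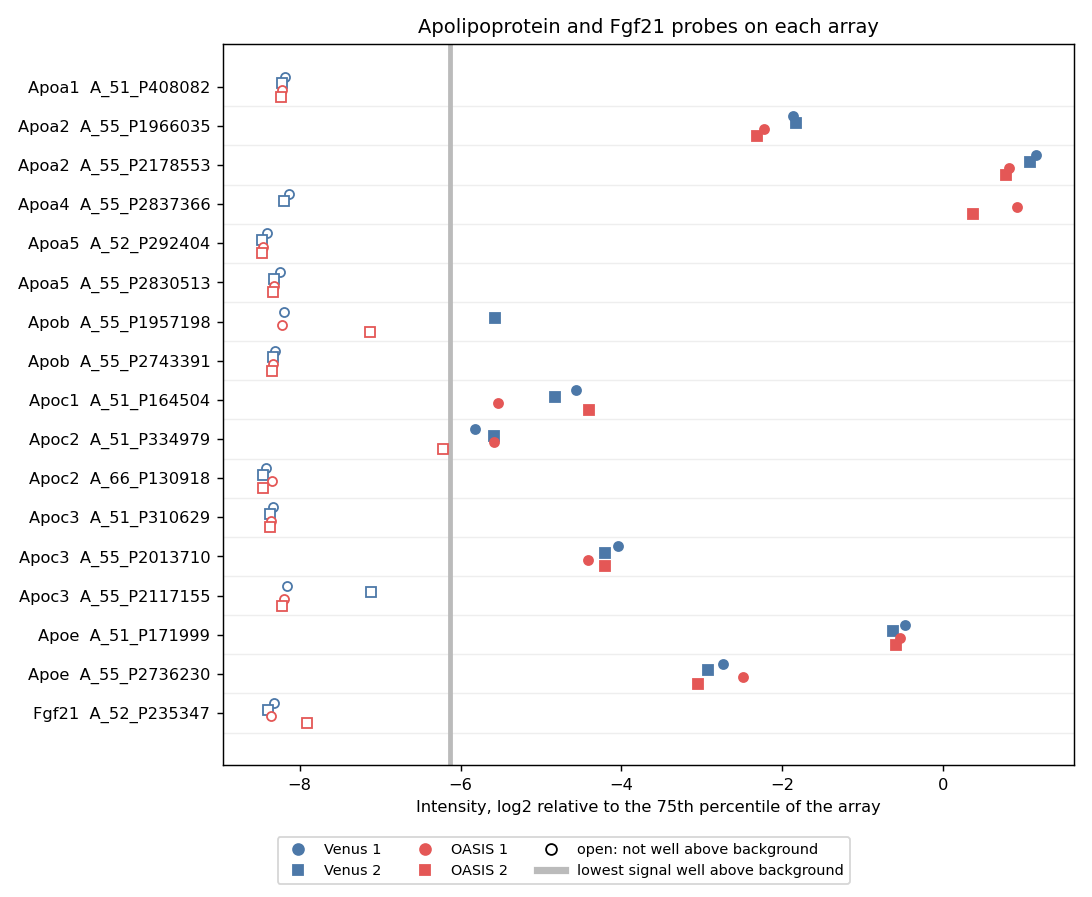
Intensity of each of the 17 probes on each of the 4 arrays (horizontal axis, log2 relative to the 75th percentile of the array), with Venus in blue, OASIS in red, and open symbols for spots not well above background. The Apoa4 probe goes from -8.13 and -8.19 with Venus to 0.92 and 0.37 with OASIS, whereas the symbols of the other probes lie close together or at background.

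Apoa4, which encodes the lipid-binding protein that enterocytes, and hepatocytes under lipid load, put on newly made particles, is read by the single probe A_55_P2837366 (NM_007468, band 9qA5.2). On the arrays Venus 1 and Venus 2 its spot had median intensities of 45 and 42, over local backgrounds of 40 and 37. On OASIS 1 and OASIS 2 it reached 1703 and 1201, over backgrounds of 38 and 30. The spot thus lay on its background in both control samples and far above it in both OASIS samples.

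Relative to the 75th percentile of the array, the log2 value of Apoa4 was -8.13 and -8.19 with Venus and 0.92 and 0.37 with OASIS. The means were -8.16 ± 0.044 and 0.64 ± 0.39 (SD, n = 2 each). Because neither control array measured the gene above background, only a bound can be given. Set against the dimmest signal well above background on each Venus array, Apoa4 was at least 109-fold higher with OASIS. The OASIS arrays differed from each other by more than the Venus arrays did, and the groups did not overlap.

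Apoa4 was the only member past the study's threshold (more than 2-fold higher or less than 0.5 of the control, with an adjusted p below 0.1), 1 gene of the 6 that could be tested. Its probe entered the test through the OASIS arrays alone. The members were also chosen with these intensities known, so that this count is a description and not a test. Across all 16318 genes tested, limma with Benjamini-Hochberg adjustment placed 8.06% past this threshold, 6.21% higher and 1.85% lower. The passage from background to detection was shared with many other probes, since 576 probes, 1.82% of those tested, were well above background on both OASIS arrays and on neither Venus array. Of these, 421 passed the threshold by their fitted value, but only 272 had a bound over 2-fold. A bound at least as high as that of Apoa4 was found for 7, itself included.

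By the distance between values centred on their own mean, over the 4 arrays, the 3 tested probes nearest to that of Apoa4 were those of Rgcc, Htr5b and Helt. Rgcc encodes a regulator of the cell cycle, Htr5b a serotonin receptor and Helt a transcription factor of the developing brain. None of the 3 was well above background on a Venus array, so that the distances rest in part on background values and set no order among them. Against the same floor they were at least 312-fold, 120-fold and 161-fold higher with OASIS.

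The Apoa4 gene stands in a cluster on chromosome 9, in the RefSeq order Apoa1, Apoc3, Apoa4, Apoa5. Its neighbours within the cluster were read separately, and none of them shared its change. Apoa1, the main protein of high-density lipoprotein, has 1 probe, with log2 values of -8.19 and -8.22 with Venus and -8.22 and -8.24 with OASIS, none of them well above background. The 4 values lay together at the floor of the array.

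Apoc3, an inhibitor of triglyceride lipolysis, has 3 probes. Only A_55_P2013710 was above background, with log2 values of -4.04 and -4.21 with Venus and -4.41 and -4.20 with OASIS. The difference was -0.18 (standard error 0.13), and the OASIS 2 value lay just above that of Venus 2, so that the groups overlapped. A second probe, A_51_P310629, stayed between -8.37 and -8.34 on every array. The third, A_55_P2117155, gave -7.11 on Venus 2 and between -8.22 and -8.16 on the other arrays, without a call above background on any.

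Apoa5, which helps lipoprotein lipase to act and is one of the genes driven by CREB3L3 in liver, was not well above background at either of its 2 probes. A_52_P292404 stayed between -8.47 and -8.41, and A_55_P2830513 between -8.33 and -8.25. At the floor of the array no fold is given for these genes, and a low level of their message in either group would not be detectable.

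Among the genes next to this cluster, Zpr1 passed the threshold and Sik3 came close to it. Within 5 protein-coding genes on either side, 8 genes were tested and had a median log2 difference of 0.22, beside -0.056 over all genes tested. A list of 10 neighbours chosen with results known had 1 past the threshold and a median of 0.40. Zpr1, a zinc finger protein and the nearest gene on the Apoa5 side, rose by 1.24 (standard error 0.15, limma adjusted p = 0.012). Sik3, a salt-inducible kinase and the nearest gene on the Apoa1 side, had a log2 difference of 0.96, short of the 2-fold threshold (adjusted p = 0.0090). Further out on that side, Pafah1b2 had 0.75, Sidt2 0.15, and Tagln and Pcsk7 -0.11 each. On the other side Bud13 had 0.29 and Cadm1 -0.93, so that the neighbours lay on both sides of 0.

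**Figure D2:**
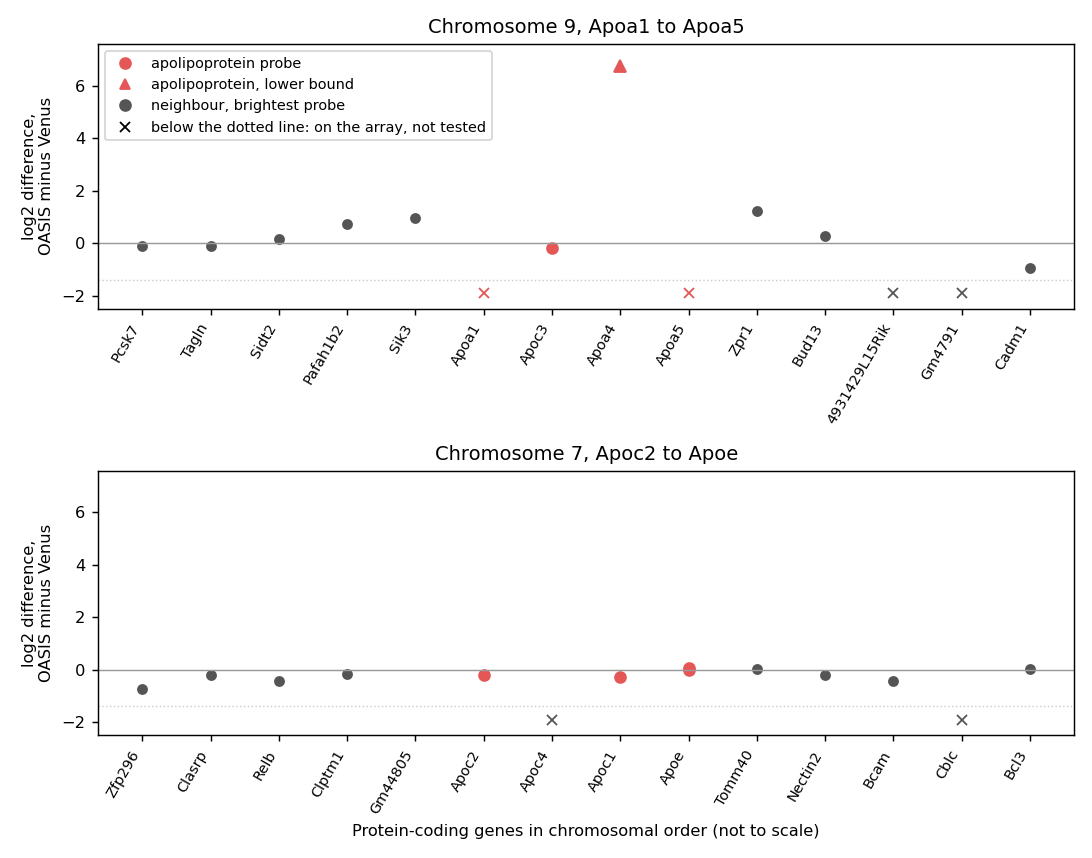
Difference between OASIS and Venus (vertical axis, log2) for the apolipoprotein genes in red and the protein-coding genes next to them in grey, in chromosomal order and not to scale; the triangle is a lower bound, and genes on the array that were not tested are crosses below the dotted line. On chromosome 9, Apoa4 lies at 6.77 or above, Zpr1 at 1.24 and Sik3 at 0.96, while on chromosome 7 every tested gene shown lies between -0.75 and 0.06.

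The second cluster, on chromosome 7, holds Apoc2, Apoc4, Apoc1 and Apoe in that order. Apoe, the ligand by which remnant particles bind to their receptors, was measured well above background by both of its probes. A_51_P171999 gave -0.47 and -0.62 with Venus and -0.54 and -0.58 with OASIS. Both OASIS values lay between the Venus values, with a difference of -0.012 (standard error 0.11). A_55_P2736230 gave -2.73 and -2.93 with Venus and -2.49 and -3.05 with OASIS, a difference of 0.059 (standard error 0.22). Here the OASIS arrays lay on either side of the Venus arrays.

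Apoc1, which hinders the uptake of remnants and the transfer of cholesteryl esters, has 1 probe, A_51_P164504. Its values were -4.56 and -4.82 with Venus and -5.53 and -4.40 with OASIS. The OASIS arrays were the lowest and the highest of the 4, and the difference of -0.28 had a standard error of 0.40. Leaving out OASIS 1 turned it to 0.29, and leaving out OASIS 2 made it -0.84, so that no direction can be given for Apoc1.

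Apoc2, the cofactor that lipoprotein lipase needs and another known CREB3L3 gene of liver, has 2 probes. A_51_P334979 gave -5.82 and -5.58 with Venus and -5.58 and -6.22 with OASIS, and the last value was not well above background. The groups overlapped, with a difference of -0.20 (standard error 0.25), which was 0.12 without OASIS 2 and -0.52 without OASIS 1. A_66_P130918 stayed between -8.46 and -8.34 on every array and was not well above background on any. Apoc2 was thus measured only just over the floor, and its direction changed with the array left out.

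Of the genes around this cluster, Tomm40, the mitochondrial import channel next to Apoe, had a log2 difference of 0.03, and Nectin2, a cell adhesion protein beyond it, had -0.21. Among the 12 listed neighbours, 10 were tested and 1 passed the threshold. Nkpd1, a predicted NTPase that lies more than 5 genes from the cluster, rose from -4.04 and -4.19 with Venus to -0.88 and -1.35 with OASIS (limma adjusted p = 0.0038). Within 5 protein-coding genes of any of the 10 members there were 51 other genes, 41 of them tested. Zpr1 was the only one of these past the threshold, and their median difference was -0.048. A shorter list of 14 genes around Apoa2, Apob and Fgf21 had 10 tested and none past the threshold with limma or the methods' t-test, with 2 at an unadjusted limma p under 0.05 and a median of 0.016.

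Apoa2, the second protein of high-density lipoprotein, lies by itself on chromosome 1 (band 1qH3) and was read by 2 probes well above background on every array. A_55_P2178553 gave 1.15 and 1.08 with Venus and 0.81 and 0.78 with OASIS. A_55_P1966035 gave -1.87 and -1.83 with Venus and -2.23 and -2.31 with OASIS. At both probes each OASIS value lay below each Venus value.

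The difference of Apoa2 was -0.32 (standard error 0.10) at the first probe and -0.42 (standard error 0.10) at the second, or 0.80 and 0.75 of the Venus level. The 2 probes read the same 4 RNA samples and are not separate replicates. Their differences stayed within -0.36 to -0.29 and within -0.46 to -0.29 over the 10 other ways of processing tried. These were 2 of the 8 tested probes of the 10 genes, and among all 31598 probes tested 39.4% had both OASIS values below both Venus values. Since the RNA was taken from whole cultures, a smaller share of cells with the message and less message per cell cannot be told apart.

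Apob, the large structural protein of chylomicrons and very low-density lipoprotein, has 2 probes, neither of which was tested. A_55_P1957198 gave -8.19 and -5.58 with Venus and -8.21 and -7.12 with OASIS. Only Venus 2 was called well above background, with a spot median of 62 over a background of 39.5. A_55_P2743391 stayed between -8.34 and -8.30. A single faint spot therefore decided whether Apob counted as detected in the control cells.

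Fgf21, the fasting hormone that liver releases under PPARα and CREB3L3, has 1 probe, A_52_P235347 (band 7qB4). Its log2 values were -8.32 and -8.39 with Venus and -8.36 and -7.90 with OASIS, and none was well above background. The spot medians were 46.5 and 38.5 with Venus and 40 and 48 with OASIS, over backgrounds of 32 to 38. OASIS 2 was the highest of the 4 values, but it remained below the dimmest signal counted as detected.

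Taking the 7 tested probes other than that of Apoa4, the differences ran from -0.42 to 0.06 with a median of -0.20. At 5 of them the arrays of the groups overlapped, and the remaining 2 were those of Apoa2.

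**Figure D3:**
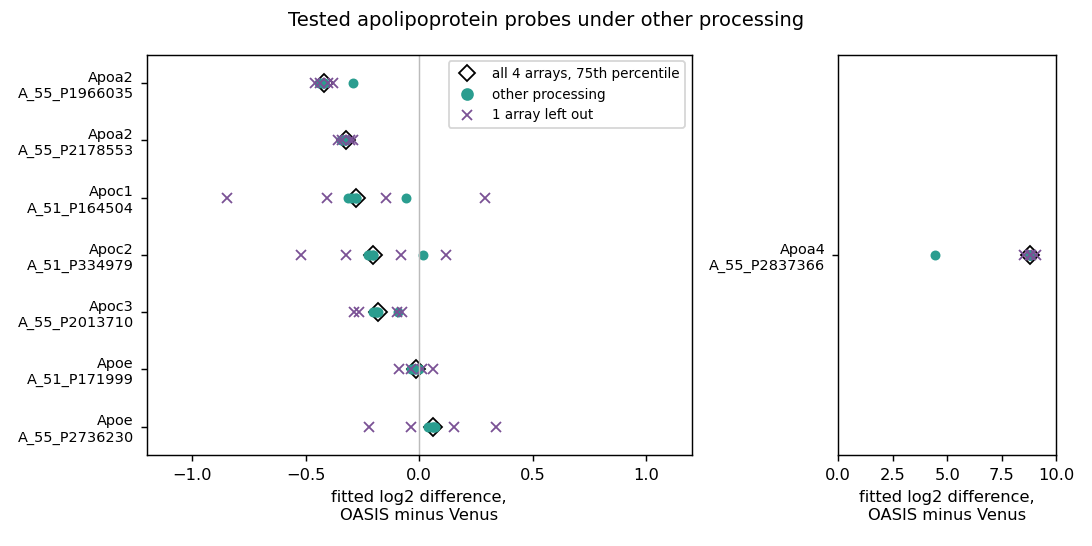
Fitted difference between OASIS and Venus (horizontal axis, log2) for the 8 tested probes, with all 4 arrays at the 75th percentile scaling (diamonds), under other processing (circles) and with 1 array left out (crosses). The probes of Apoa2 and Apoc3 stay below 0, those of Apoc1, Apoc2 and Apoe cross 0, and Apoa4, whose fitted value is not a bound, stays between 4.42 and 9.08.

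Creb3l3, which encodes the factor by whose ties in liver these genes were chosen, was also higher with OASIS. Its probe A_55_P2174987 (band 10qC1) gave -5.92 and -6.59 with Venus, only the first of them well above background, and 0.97 and 1.15 with OASIS. The gene rose by 7.32 (standard error 0.25, limma adjusted p = 0.0016), or by 4.84 with normexp background correction. Since 1 Venus value lay under the floor and the other just over it, the size of this rise rests in part on background values. With 2 groups only, every gene higher with OASIS has its high values in the same 2 samples, and 1014 of the 16318 genes tested passed as higher. A link between Creb3l3 and Apoa4 was not tested. Apoa1, Apoa5 and Fgf21 were not detected in these 2 samples.

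A wider list of genes tied to CREB3L3, PPARα or fasting, with Creb3l3 and Ppara themselves in it, had 27 on the array and 16 tested. Creb3l3 and Cpt1b, the muscle form of the enzyme that lets fatty acids into mitochondria, were past the threshold at their brightest probe, both higher. At a dimmer probe, Elovl5, a fatty acid elongase, fell by 1.59 (limma adjusted p = 0.0056) and the deacetylase Sirt1 fell by 1.16 (limma adjusted p = 0.023), while their brightest probes had 0.12 and 0.16. Cpt1b rose by 1.33 (standard error 0.15, limma adjusted p = 0.010), or by 0.63, short of the threshold, with normexp background correction. Its liver form Cpt1a had a difference of -0.02. Ppara, Pck1 (gluconeogenesis), Hamp (the iron hormone hepcidin) and Apcs (an acute phase protein) were not well above background on any array. The median of the tested genes in this list was -0.019.

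FGF21 acts through an FGF receptor with the co-receptor β-Klotho, encoded by Klb. Klb and its relative Kl were not well above background on any array. Fgfr3 rose by 1.76 (standard error 0.13, limma adjusted p = 0.0051), with -0.89 and -0.82 with Venus and 1.03 and 0.77 with OASIS. Fgfr1, the receptor that FGF21 mainly uses, had a difference of -0.36 and Fgfr2 of -0.85, neither past the threshold. It was 1 of the 8 tested genes of this list that passed.

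Among 22 other apolipoproteins and related particle proteins, none of the 11 tested passed the threshold with limma or with the methods' t-test, and the median was -0.15. At an unadjusted limma p under 0.05 there were 3. The largest differences were 0.69 for Apol8 and -0.86 for Apol9a and Apol9b, and the arrays of the last pair overlapped between the groups. Clu, a widely made chaperone of the same particles, had -0.15, Apod -0.25 and Apom -0.05. Another 9 of the 22, among them Apoc4 and Apof, were not well above background on any array.

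Genes that load lipid onto new particles, or carry these out of the endoplasmic reticulum, included 2 of 13 tested past the threshold. Dgat2, which makes triglyceride, rose by 2.35 (standard error 0.17, limma adjusted p = 0.0047), with -0.98 and -0.86 with Venus and 1.63 and 1.23 with OASIS. Surf4, a cargo receptor for lipoproteins on their way to the Golgi, rose by 2.01 (standard error 0.11, limma adjusted p = 0.0029). Mttp, the transfer protein without which apolipoprotein B is not lipidated, had a difference of -0.55, short of the threshold. The median of the list was 0.15.

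The lipases and remodelling factors held 1 of 12 tested genes past the threshold. Angptl4, an inhibitor of lipoprotein lipase that responds to fasting, rose by 1.57 (standard error 0.19, limma adjusted p = 0.011). Lpl itself had a difference of -0.59, Pltp of -0.35 and Lcat of -0.13. None of these was past the threshold, and the median of the list was -0.0092. The lactonase Pon3 and the endothelial lipase Lipg passed at a dimmer probe, at 2.03 and 1.76, but not at their brightest, at 0.21 and 0.87. With the mean of a gene's probes both passed, at 1.12 and 1.32.

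Receptors for apolipoproteins and cholesterol transporters numbered 20 tested genes, with 1 past the threshold and a median of -0.14. Lrp2, or megalin, the endocytic receptor of the proximal tubule, rose by 1.62 (standard error 0.23, limma adjusted p = 0.015). Its 5 tested probes were not of 1 kind, since another gave 1.68 and the remaining 3 gave 0.01, -0.10 and -0.16. The mean of the 5 probes, at 0.61, was not past the threshold. Vldlr had a difference of -0.84 and Abca1, which hands cholesterol to the apolipoprotein of Apoa1, of -0.78. A dimmer probe of Abca1 passed the threshold at -1.27 (limma adjusted p = 0.026), and the mean of its probes passed at -1.03.

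Lrp8, a receptor for the product of Apoe, was read differently by its probes. Its brightest probe had a difference of 0.42 (limma adjusted p = 0.19). The other 3 tested probes rose by 3.17, 2.57 and 2.45, with adjusted p-values of 0.0030, 0.0079 and 0.012. Over all lists, 86 genes had several tested probes, 14 of them with probes on different sides of the threshold, and in 10 only a dimmer probe passed.

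The transcription factors known to act on apolipoprotein promoters in liver held 2 of 17 tested genes past the threshold and a median of 0.17. Nr2f1, an orphan nuclear receptor, rose by 2.19 (standard error 0.11, limma adjusted p = 0.0027), or by 0.90, short of the threshold, with normexp background correction. Foxa2, a pioneer factor of liver, was well above background only with OASIS and was at least 1.55-fold higher there (limma adjusted p = 0.011). This bound is under 2-fold, and the call rests on a fitted difference of 2.90 from Venus values not well above background. With normexp background correction the fitted difference of Foxa2 was 0.48, short of the threshold. Hnf4a, the nuclear receptor on which most apolipoprotein genes of hepatocytes depend, was not well above background on any array.

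Fgf21 is also a target of the integrated stress response through ATF4, so that 14 genes of that response were read, all of them tested. None was higher past the threshold, and the median was -0.30. Slc7a11, the cystine transporter, fell by 1.39 (standard error 0.11, limma adjusted p = 0.0056), and Chac1, which breaks down glutathione, fell by 1.10 (standard error 0.18, limma adjusted p = 0.019). The call of Chac1 was lost without Venus 2 at -0.95 and without OASIS 1 at -0.93, and that of Slc7a11 with normexp background correction at -0.95. Atf4 had a difference of 0.10 and Ddit3 of -0.07.

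**Figure D4:**
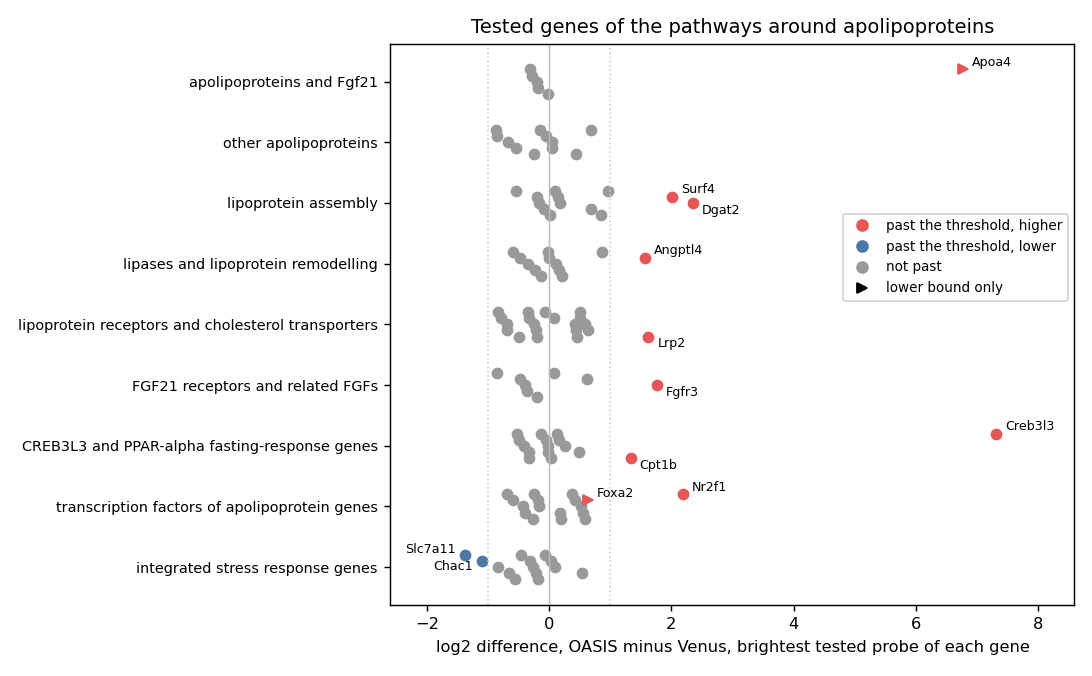
Difference between OASIS and Venus (horizontal axis, log2) for the brightest tested probe of each gene, 1 row per gene list, with genes past the threshold in red (higher) or blue (lower) and named; right-pointing triangles are lower bounds, and dotted lines mark the 2-fold threshold. The neighbour and marker lists are not drawn. Most points lie between the dotted lines, Creb3l3 lies at a fitted value of 7.32 that is not a bound, and the bound of Apoa4 lies at 6.77.

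Over all 17 lists, 261 genes other than the 10 members were on the array and 180 were tested. Of these, 20 passed the threshold, 11.1%, with 17 higher and 3 lower, beside 8.06% of all genes tested. Their median difference was -0.050.

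Because hepatocytes and enterocytes are the usual makers of apolipoproteins, their markers were read in the same samples. Of 19 hepatocyte markers, 9 were tested and 2 passed the threshold, both higher. Alb, Ttr, Ahsg, Fga, Fgb and Fgg, the defining secreted proteins of hepatocytes, were not well above background on any array. Another 6 of the 19 markers were well above background on every array, none of them past the threshold. Rbp4, the carrier of retinol, was at least 38.4-fold higher with OASIS, and Afp, the fetal serum protein, at least 1.89-fold. The bound of Afp is under 2-fold, and its call rests on a fitted difference of 2.36 from Venus values not well above background. Afp lost its call without either of the OASIS arrays, at limma adjusted p-values of 0.11 in both cases. The summed linear level of the list ran from 0.894 to 1.01 with Venus and from 1.35 to 1.5 with OASIS, in units of the 75th percentile of the array. Rbp4 and Afp carried this increase, since the other 17 markers summed to 0.888 to 0.994 with Venus and 0.826 to 0.855 with OASIS, and the median of the tested markers was -0.12.

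Of 10 enterocyte markers, 4 were tested and 1 passed the threshold. Fabp2, the fatty acid binding protein of the gut, was not above background with Venus and at least 7.86-fold higher with OASIS (limma adjusted p = 0.012). Alpi, Lct and Cdx1 were not well above background on any array. Vil1, Lgals4 and Cdhr2 were well above background on all 4, with differences of 0.30, 0.05 and -0.02, none past the threshold. The summed level was 0.870 to 0.936 with Venus and 0.933 to 1.11 with OASIS, and without Fabp2 it was 0.863 to 0.921 and 0.847 to 0.963.

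Macrophages, another source of Apoe, were represented by 14 markers, of which 8 were tested and 1 passed. Fcgr3, an immunoglobulin receptor, was at least 144-fold higher with OASIS. Of the 14, 7 were well above background on every array and 6 on none, among the latter Adgre1, C1qa, C1qc, Cx3cr1 and Tyrobp. The summed level was 17.6 to 18.7 with Venus and 16.0 to 17.6 with OASIS, and without Fcgr3 it was 17.6 to 18.7 and 14.5 to 14.8.

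Podocyte markers were mixed, with 10 of 14 tested, 2 higher and 1 lower. The brighter probe of Wt1 rose by 4.62 (limma adjusted p = 0.0021), while its other probe had a difference of -0.16. Cd2ap rose by 1.09 (limma adjusted p = 0.0083) and Plce1 fell by 1.26 (limma adjusted p = 0.093), in each case at 1 of 3 tested probes. Plce1 lost its call without Venus 1, Venus 2 or OASIS 1, at -1.5, -1.01 and -0.69. Tcf21 and Ptpro were not well above background on any array, and Nphs1 was so on 1 Venus array only. The summed level was 65.4 to 70.2 with Venus and 60.0 to 67.0 with OASIS. Without Wt1, Cd2ap and Plce1 it was 55.7 to 58.1 with Venus and 47.3 to 51.6 with OASIS.

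For the proximal tubule, 8 of 10 markers were tested and Lrp2 alone passed the threshold, and the summed level was 22.3 to 30.0 with Venus and 22.6 to 38.1 with OASIS. For endothelial and mesangial cells, none of the 4 tested of 10 markers passed with limma or the methods' t-test, and 1 had an unadjusted limma p under 0.05. The summed level was 72.3 to 73.3 with Venus and 60.0 to 61.5 with OASIS. Most of it came from Acta2 alone, at log2 6.12 and 6.13 with Venus and 5.85 and 5.87 with OASIS. Kdr, Tek, Cdh5, Emcn and Tie1 were not well above background on any array. The part of these marker levels in the Apoa4 difference was not tested.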

How the data were processed

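RNA of 2 Venus and 2 OASIS samples had been hybridised to Agilent 1-colour arrays, all on the same slide and from the same scan. Per the file headers, Agilent Feature Extraction 12.1.0.3 gave the deposited intensity of each spot, corrected for background by the authors' run, with marks for spots well above background. A further file from the authors multiplies this deposited intensity by 1 factor per array and adds to it a detection score, gene symbols, bands and pathways. The order of genes came from RefSeq's annotation of GRCm38, another build than that of the array, so that no coordinates are given.

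Control and outlier spots were left out, and the 75th percentile of its array was subtracted from each log2 value. Of 56605 probes, 31599 passed the filter, 1 of them was an outlier on all 4 arrays, and 31598 were tested with limma 3.58.1 (R 4.3.3, data.table, version 1.17.8), with Benjamini-Hochberg adjustment over all of them. Counts of genes use the probe of each gene that was brightest on average. A bound compares the mean of the bright group with, per array of the dim group, the higher of the probe's value and the dimmest signal well above background. The members and the gene lists were chosen with earlier results of these data known. Genes were named if they were members, passed the threshold in a list (at most 6 per direction), were defining markers at background, or were among the 3 probes nearest to Apoa4. Other genes given with differences short of the threshold were chosen for their known roles after their values were seen. Values of some listed genes are not reported here. The fit was tested on simulated data.

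The alternatives were quantile or median scaling, normexp with an offset of 50 on the median spot intensity, the authors' scaled values, no filter or a filter on all 4 arrays, outlier spots kept, the mean of a gene's probes, any tested probe, the methods' t-test, an intensity trend, an adjusted p under 0.05, the replicate block and leaving out each array.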

Additional observations from a re-analysis of the deposited data

How the results depend on the processing

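The count of members past the threshold was 1 under most of the alternatives and 0 when a probe had to be well above background on all 4 arrays, since Apoa4 is then not tested. It was 1 to 2 when 1 array was left out. The second gene was Apob, lower by 2.09 without Venus 1, where only the array Venus 2, with its faint spot, stood for the control and was assumed to vary like the OASIS arrays. The normexp correction lowered the fitted Apoa4 difference from 8.81 to 4.42 and moved one Apoa2 probe to -0.29. Of 20 listed genes past the threshold, 17 were higher and 3 lower. These counts became 7, 6 and 1 with the methods' t-test, 11 were higher with the filter on all 4 arrays, and 7 were lower when any tested probe of a gene could pass, an alternative chosen after seeing the data. Without 1 array in turn the counts were 19 to 29, 17 to 22 and 2 to 7, the highest without OASIS 2, where Abca1, Apol9a, Apol9b and Apol10b came in as lower. With normexp they were 15, 13 and 2.

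With the replicate number as a block the counts were 1, 20, 17 and 3, as without it. No label ties a number to a shared culture or day. Across the tested probes, the difference between Venus 1 and 2 correlated at 0.26 with that between OASIS 1 and 2. With 2 samples per group, this value does not settle whether the numbers pair the samples. Of 334 values of the 20 named genes under alternatives, 302 kept their call, 32 lost it and none changed direction. Plce1 lost its call under 8 alternatives and Afp under 5. With 2 arrays per group an exact permutation test cannot go below a two-sided p of 0.33, and a message under the floor of the array is not seen.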

Other observations

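The pathway annotation in the deposited table places 8 of the 10 genes in KEGG's cholesterol metabolism, among 48 genes on the array. Of the other 33 tested genes of that pathway, Lrp2 and Angptl4 rose and Soat2, which esterifies cholesterol in liver and intestine, fell by 1.33 (limma adjusted p = 0.011). The same annotation places Apoa4, Apoa1 and Apob in fat digestion and absorption, where 20 other genes were tested. There Mogat2, the monoacylglycerol acyltransferase of enterocytes, was at least 47.4-fold higher with OASIS (limma adjusted p = 0.0019), Fabp2 and Dgat2 rose, and the phospholipase Pla2g2d was at least 2.40-fold lower (limma adjusted p = 0.019). The same 3 genes stand in vitamin digestion and absorption, where none of 14 other tested genes passed with limma or the methods' t-test. Their median was -0.21, and 6 had an unadjusted limma p under 0.05. That p was also reached by 16 of the 33 genes in cholesterol metabolism, 12 of the 20 in fat digestion and absorption and 28 of 56 in PPAR signaling. The share of all tested genes at this unadjusted p is not given here. These counts, and those given for the gene lists, therefore cannot be read as results about a pathway or list.

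In PPAR signaling, which holds Apoa1, Apoa2, Apoa5 and Apoc3, 7 of 56 other tested genes rose and 1 fell, with a median of 0.0066. Ucp1, the uncoupling protein of brown fat, rose by 3.62 (limma adjusted p = 0.0083). The desaturase Scd2 rose by 1.54 and the heart fatty acid binding protein Fabp3 by 1.46. Fabp7, the form of brain, was at least 3.35-fold higher with OASIS. Acsl4, which activates arachidonic acid, fell by 1.36 (limma adjusted p = 0.0073).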
